A study of Mus musculus with 20 samples.

Results

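Of the 10 mock-treated skin arrays of the series, which has 20 arrays in all, 3 had low levels of hair shaft keratins and are described here against the other 7. The arrays were chosen on measured values. For each mock array the log2 values of the hair keratins Krt31, Krt34, Krt35, Krt81 and Krt86 were averaged, and the 3 arrays with the lowest average were set against the rest. A sixth keratin of the intended set, Krt85, had no probe set with a single gene symbol and did not enter. The 66 measured hair keratin and keratin-associated protein (Krtap) genes were then set aside, and the 22114 other genes were compared between the 3 and the 7 arrays with genotype as a covariate. Because the split was made from these same arrays, every difference between them is a description and carries no test.

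All 20 arrays measured RNA of abdominal mouse skin, 5 animals in each of 4 groups. Control mice were Zfp36 fl/fl without Cre, and knockout mice, their littermates, were Zfp36 fl/fl K14 cre. Zfp36 encodes tristetraprolin, a protein that speeds the decay of messenger RNAs with AU-rich elements. The keratin 14 promoter drives Cre in keratinocytes, including those of the hair follicle, so other skin cells of the knockouts keep the gene. Skin of each genotype was either mock-treated or given topical imiquimod, which activates Toll-like receptor 7, for 5 days, and was taken 4 h after the last application. Neither the ages of the animals nor the stage of the hair cycle were given in the sources used here. Animals are named below by group and by the replicate number of the labels.

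A hair follicle grows in anagen, regresses in catagen and rests in telogen. In anagen, matrix cells at the base of the follicle divide around the dermal papilla and differentiate into the hair shaft and, around it, the inner root sheath, which has keratins of its own. Melanocytes of the hair bulb make pigment in anagen and stop early in catagen, while stem cells in the bulge and cells of the outer root sheath remain through the cycle.

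The hair keratin mean of the 10 mock arrays ran in steps. It was 5.95 in knockout 3, 6.10 in control 5 and 7.58 in knockout 2, which are the 3 low arrays. The nearest array outside the low set was control 3 at 9.14, followed by knockout 4 at 9.65 and knockout 1 at 9.95. Control 1 had 10.24, knockout 5 had 10.27, control 2 had 10.31 and control 4 had 10.34. The low set thus held 1 control and 2 knockouts, the other set 4 controls and 3 knockouts, and knockout 2 lay about midway between the pair below it and the array above it. Krt86, a keratin of the shaft cortex, was at 5.74, 6.19 and 7.71 in knockout 3, control 5 and knockout 2, against a lowest value of 9.70, a median of 10.75 and a highest value of 10.88 in the other 7. Of the 66 hair keratin and Krtap genes, 60 were lower in all 3 low arrays than in any of the others. Among the 60 are the 5 keratins that ordered the arrays, so their separation was largely set by the rule. Of the 22114 other genes, 4.61% were lower in the same way.

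**Figure D1:**
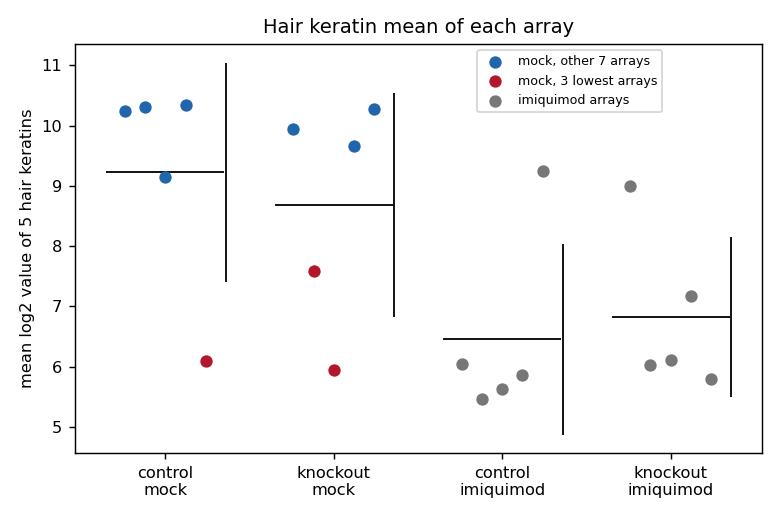
Mean log2 value of 5 hair keratins in each of the 20 arrays, by genotype and treatment; points are arrays, horizontal lines group means and vertical lines 1 SD to either side (n = 5). The 3 low mock arrays lie at 5.95, 6.10 and 7.58 and the other 7 mock arrays between 9.14 and 10.34; of the imiquimod arrays, 2 lie near 9.

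Sequences upstream of some of the genes that separate the arrays are shown because hair keratins and pigment genes, described below, did not divide the mock arrays in the same way. They come from RefSeq promoter windows of build GRCm38.p6, from 250 bases before to 50 after the start of a gene, and run 5′ to 3′ in the direction of the gene. In the hair keratins, capitals mark CTTTGA, the core bound by LEF1 and related TCF factors. Krt31 lies on the minus strand (chr11:100050780-100050801), as do Krt34 (chr11:100041779-100041804) and Krt33b (chr11:100030100-100030118).
Krt31: tgacttCTTTGAagggctactg
Krt34: aatctgcctcCTTTGAaggcatctaa
Krt33b: ttaCTTTGAagccaaacca
Of the 15 measured hair keratins 9 had a promoter window, and 5 of these 9 (Krt31, Krt32, Krt33b, Krt34 and Krt39, all type I keratins) had this motif on either strand, against 18.2% of 27025 genes with a window. No window was listed for Krt33a, Krt35, Krt81, Krt83, Krt86 and Krt87.

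In the pigment genes, capitals mark TCATGTG, the M-box core bound by MITF, the master transcription factor of melanocytes, which includes the shorter E-box CATGTG. Tyr (chr7:87493518-87493544) and Dct (chr14:118052381-118052407) are on the minus strand, and Tyrp1 (chr4:80834156-80834182) and Trpm1 (chr7:64153683-64153709) on the plus strand.
Tyr: aaaaagttagTCATGTGctttgcagaa
Tyrp1: ggggagggagTCATGTGctgcctagta
Dct: gcacttagggTCATGTGctaacaaaga
Trpm1: caaatcctcaTCATGTGcccaccccaa
Of the 17 measured pigment genes 10 had a window, and 5 of these had the motif on either strand, against 4.31% of all genes with a window. A match describes the letters of the window and not the binding of a factor.

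Outside the hair keratins and Krtap genes, 210 genes were lower in every one of the 3 low arrays than in any of the other 7, with a genotype-adjusted difference of at least 2-fold (0.95% of the 22114 genes). In the other direction 32 genes were higher by the same rule (0.145%); without control 3 they were 88, and without knockout 2 they were 105. Of the 210 lower genes, 73 differed by at least 4-fold and 39 by at least 8-fold, while none of the 32 higher genes reached 4-fold. The share lower or higher without overlap at any size was 4.61% (1020 genes) and 5.25% (1161 genes), so the 2 directions differed in size rather than in number. Among the 210 lower genes, knockout 2 had the highest of the 3 low values in 178, and control 3 had the lowest of the 7 other values in 148. In whole skin, fewer cells of a type and less RNA per cell cannot be told apart, and values are relative to the total RNA of each array.

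Genes of the inner root sheath showed the largest differences. All 10 measured members of the list lay lower in the 3 low arrays without overlap, beside 4.61% of all 22114 genes. The median log2 difference of the list was -3.86, beside a median of 0.03 over all genes. Krt71, a keratin of the inner root sheath, was at 6.83 in knockout 3, 6.76 in control 5 and 10.03 in knockout 2, against 11.33, 11.78 and 11.87 as the lowest, median and highest of the other 7. The difference was -3.96, or 15.5-fold, and knockout 2 lay far closer to the other 7 arrays than to its own set. The Krt71 difference was -4.92 without knockout 2, -3.32 without control 5 and -3.37 without knockout 3. The same arrays were left out for 35 genes, made up of the largest falls and the largest rises of the split without provisional symbols. The fold grew by over 1.5 times in 13 of the 35 without knockout 2. It shrank as much in 7 without control 5 and in 6 without knockout 3. All of the genes that moved this far were among the falls, and none was among the rises. Krt26, another keratin of the inner root sheath, had 4.62, 4.56 and 7.96 in knockout 3, control 5 and knockout 2, against 9.72 to 10.80 with a median of 10.52 (difference -4.77). Tchh encodes trichohyalin, which hardens the inner root sheath, and had 7.67, 8.02 and 10.77, against 11.72 to 12.22 with a median of 12.15. Krt75, the keratin of the companion layer, showed the same order at 6.76, 6.26 and 7.94, against 9.12 to 9.75.

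Non-keratin proteins of the hair shaft and its cuticle followed. Of 17 measured members, 14 were lower without overlap, beside 4.61% of all genes, with a median difference of -2.74. S100a3, a calcium-binding protein of the hair cuticle, was at 6.19, 6.30 and 8.0 in knockout 3, control 5 and knockout 2, against a lowest value of 9.62, a median of 10.51 and a highest value of 10.58 (difference -3.57, 11.9-fold). Padi3, which converts arginine to citrulline in trichohyalin and other hair proteins, had 5.16, 5.42 and 6.95, against a lowest value of 8.86 and a median of 9.48. Dsg4, the desmosomal cadherin of the shaft, had 4.91, 4.68 and 8.06, against 9.22 to 10.23 with a median of 9.99. Tgm3, a transglutaminase of hair and epidermis, was 1 of the 3 members that overlapped: control 3 had 7.10 and knockout 4 had 7.35, beside 7.70, 7.43 and 7.14 in the low arrays. Liph, which makes the lysophosphatidic acid needed for hair growth, was lower without overlap but by only -0.62.

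With provisional symbols left out, the largest difference without overlap outside the hair genes was in Calhm4, a member of the calcium homeostasis modulator family of channels. Calhm4 was at 5.15, 5.06 and 7.92 in the 3 low arrays and between 9.42 and 11.16 in the others (-4.84). Gprc5d, a receptor known from hair follicles and plasma cells, had 4.18, 4.16 and 5.77, against 8.02 to 9.50. Also among the 20 largest were Crnn, which encodes cornulin (-3.94), the protease gene Ctse (-3.58), the lysozyme-like Lyg2 (-3.86) and Psors1c2 (-3.45). Each of these separated the 3 arrays from the 7 with the same step between control 5 and knockout 2.

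Transcription factors of the hair matrix and shaft were lower by smaller amounts. Of 17 measured, 13 lay lower without overlap, beside 4.61% of all genes, with a median difference of -0.94. Hoxc13, a direct activator of hair keratin genes, was at 5.42, 5.38 and 6.74, against a lowest value of 7.18, a median of 7.80 and a highest value of 8.16 (-1.95, 3.86-fold). Dlx3, needed for shaft and inner root sheath formation, had 6.31, 6.20 and 6.20, against 7.05 to 8.59 with a median of 8.41 (-2.01). Here knockout 2 did not stand above the other low arrays. Lef1, the nuclear partner of beta-catenin in matrix cells, had 5.48, 5.35 and 5.59, against 6.27 to 8.07 with a median of 7.65 (-1.78), and its values in control 3 (6.27), knockout 4 (6.69) and knockout 5 (6.80) lay below those of the other 4 arrays. Foxn1, mutated in nude mice, differed by -1.57, Msx2 by -1.63 and Cux1 by -1.46. Gata3, the inner root sheath regulator that also acts in epidermis and lymphocytes, differed by -0.28, and Runx3 by 0.21 with overlap.

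Among 27 measured ligands that act between follicle epithelium and dermis, 7 were lower and 1 was higher without overlap, where 4.61% of all genes were lower and 5.25% higher, and the median difference was -0.03. Fgf5, a signal that ends anagen, was at 3.92, 4.03 and 4.36, against 4.72 to 6.12 with a median of 5.64 (-1.54). Wnt5a, a non-canonical WNT, had 6.11, 5.72 and 5.82, against 6.24 to 7.20 with a median of 7.09 (-1.02). Igf1, a growth factor made by the dermal papilla and other dermal cells, was the ligand that lay higher, at 7.85, 7.47 and 7.23 against 6.47 to 7.03. Shh, made by matrix cells in anagen, was dim in every mock array (3.59 to 4.46) and its sets overlapped.

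Of 16 receptors, 2 were lower and 1 was higher without overlap (median -0.18), and of 14 inhibitors, 1 was lower and 2 were higher (median 0.10). Over all genes 4.61% were lower and 5.25% higher, so counts of 1 or 2 in lists of this size are near the background. Bambi, a decoy receptor of the TGF-beta family, was the lower inhibitor, at 6.11, 6.16 and 6.70 against 7.85 to 8.79 with a median of 8.37 (-2.0). The BMP antagonist Grem1 was higher, at 6.94, 7.19 and 7.04 against 5.79 to 6.54, as was the WNT antagonist Sfrp2 at 6.96, 6.35 and 6.25 against 5.46 to 6.03. Of 12 dermal papilla markers, none was lower and 1, Crabp1, was higher without overlap (median 0.13). Since 5.25% of all genes were higher without overlap, a count of 1 in a list of this size is near the background.

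Pigment genes and genes of replication and mitosis did not divide the arrays in the way the hair keratins did. Of 17 pigment genes, 3 were lower without overlap, and of 38 replication and mitosis genes, 6 were, beside 4.61% of all genes. Tyrp1, an enzyme of melanin synthesis, was at 5.15, 5.37 and 5.64 in knockout 3, control 5 and knockout 2, but control 3 (5.11) and knockout 4 (5.08), which had high hair keratins, were as low. Knockout 5 was intermediate at 6.61, and the remaining 4 arrays lay between 8.40 and 8.78.

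Tyr, the rate-limiting enzyme of melanin synthesis, had 3.71, 3.15 and 3.10 in the 3 low arrays, 3.09 in control 3, 3.07 in knockout 4 and 3.55 in knockout 5. The other 4 arrays lay between 5.21 and 5.89. Dct followed the same order, with 5.96 in control 3, 5.94 in knockout 4, 6.57 in knockout 5 and 8.18 to 8.79 in the 4 highest, against 5.90, 6.02 and 6.25 in the low arrays. Mitf, the transcription factor gene, was 1 of the 3 pigment genes lower without overlap. At 7.19, 7.18 and 7.64 against 8.14 to 8.47 it divided the 3 arrays from the 7, with control 3 the highest of all at 8.47.

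Mki67, which encodes the proliferation marker Ki-67, was at 7.45, 7.39 and 7.63 in the 3 low arrays, 7.55 in control 3, 7.93 in knockout 4 and 8.37 in knockout 5. The remaining 4 arrays lay between 9.14 and 9.49, so its order over the mock arrays was that of the pigment genes. Kif11, a mitotic kinesin, had 6.21, 5.96 and 5.97, followed by 6.28 in control 3, 6.33 in knockout 4 and 7.07 in knockout 5, with 7.64 to 8.11 in the rest. The same 4 arrays were highest for Hhip and Wif1, inhibitors of Hedgehog and WNT signalling. Hhip had 4.17 in control 3, 4.53 in knockout 4, 5.21 in knockout 5 and 5.82 to 6.75 in the others, against 4.34, 4.38 and 4.47 in the low arrays. The mean log2 value of the pigment list was 5.54, 5.61 and 5.56 in the low arrays, 5.58 in control 3, 5.65 in knockout 4, 5.84 in knockout 5 and 6.43 to 6.71 in the rest.

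**Figure D2:**
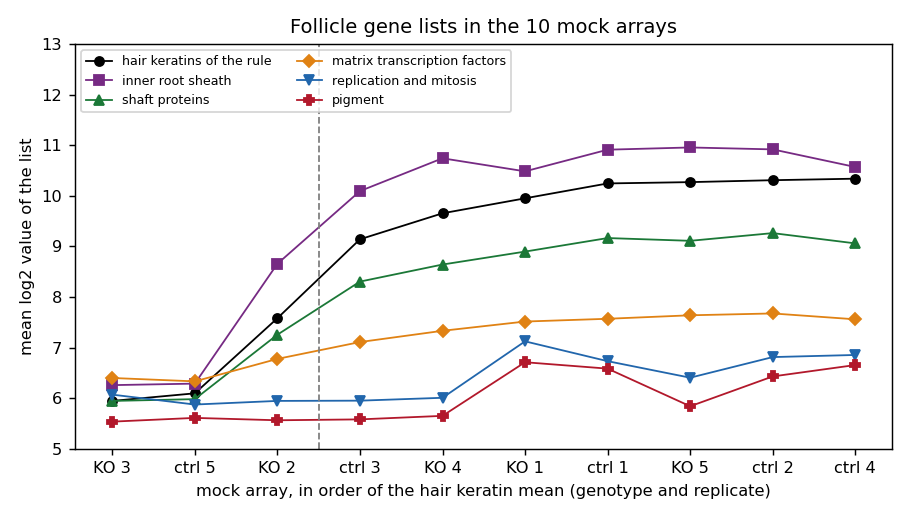
Mean log2 value of each gene list (lines, one per list) in the 10 mock arrays, ordered along the axis by the hair keratin mean; KO is knockout, ctrl is control, and the dashed line separates the 3 low arrays. Inner root sheath, shaft and hair keratin lines step up through knockout 2, while the pigment and replication lines stay low through control 3 and knockout 4 (pigment 5.58 and 5.65) and are highest in knockout 1, control 1, control 2 and control 4.

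Some genes of the outer root sheath and bulge gave yet another order, with low values in knockout 3 and control 5 alone. Of the 21 members of the list, 6 were lower and 2 higher without overlap (median -0.34, or -0.18 without control 5). Over all genes 4.61% were lower and 5.25% higher. The 6 divided the 3 arrays from the 7, whereas Lgr5 and Sox9 did not. Lgr5, a marker of follicle stem and progenitor cells, was at 6.66 and 6.6 in knockout 3 and control 5 but 8.27 in knockout 2, within the 7.27 to 8.39 of the other 7. Sox9, a regulator of the outer root sheath, had 6.85 and 6.92, then 7.84 in knockout 2, within 7.65 to 8.41.

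Krt6a, counted in the epidermal list, is a keratin of the companion layer and outer root sheath that is also induced in stressed epidermis. It had 7.89 and 7.33, then 9.71 in knockout 2, within 8.59 to 9.94. Corin, a dermal papilla protease, was ordered likewise, at 6.08 and 5.75 and then 7.02 in knockout 2, within 6.47 to 7.07. In the outer root sheath and bulge list, the members with the lowest differences were Cdh3, Foxc1 and Sox9, and those with the highest Cd34, Fgf18 and Krt15. Cd34, a bulge marker that endothelium and fibroblasts also express, had 10.02, 10.04 and 9.86 against 8.99 to 9.74, and Krt15 had 10.47, 10.79 and 11.02 against 9.55 to 10.73. Fgf18, a telogen signal of the bulge, had 6.82, 6.98 and 6.37 against 5.72 to 6.37, so that knockout 2 equalled the highest of the others.

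Genes that were higher in the low arrays came from several other tissues of the sample. Of 21 skeletal muscle genes, 14 were higher without overlap and none was lower (median 0.81), beside 5.25% of all genes higher and 4.61% lower. Pvalb, the calcium buffer of fast muscle fibres, was at 9.08, 9.19 and 8.80, against a lowest value of 7.32, a median of 7.83 and a highest value of 8.50 (1.24, 2.37-fold). Casq1, the calcium store protein of muscle, had 9.89, 10.64 and 9.69, against 8.46 to 9.58. Mstn, which encodes the muscle growth inhibitor myostatin, had 8.61, 9.05 and 8.53, against 6.85 to 8.16 (1.32).

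Dermal and immune lists also lay higher, where 5.25% of all genes were higher and 4.61% lower without overlap. Fibroblast and matrix genes were higher without overlap in 9 of 19 (median 0.68), among them the proteoglycan gene Lum at 9.49, 9.71 and 9.56 against 8.21 to 9.33. Adipocyte genes were higher in 3 of 18 (median 0.68), including Lep, which encodes leptin, at 8.12, 7.74 and 7.41 against 6.35 to 7.32. The adipocyte list mean was 9.39 in knockout 3, 8.57 in control 5 and 8.31 in knockout 2, against 7.73 to 8.56, and the median difference became 0.39 without knockout 3. Macrophage genes were higher in 6 of 14 (median 0.74), mast cell genes in 6 of 8 (0.59), dendritic cell and MHC class II genes in 4 of 9 (0.56), endothelial genes in 4 of 13 (0.40) and Schwann cell genes in 3 of 5 (0.39). The dendritic cell median became 0.37 without control 5. Mrc1, the mannose receptor of resident macrophages, had 9.53, 9.17 and 9.44 against 7.96 to 9.05, and H2-Ab1, an MHC class II chain, had 10.53, 10.61 and 10.63 against 8.85 to 10.18. T cell genes were higher in 2 of 10 (median 0.27), circadian clock genes in 3 of 15 (0.30) and B and plasma cell genes in 0 of 6 (0.18), while of 15 sebaceous gland genes 1 was lower and 1 was higher (0.27). Neutrophil genes were neither lower nor higher without overlap in 10 of 10 (median -0.01). The mean of the macrophage list was 8.03, 8.14 and 7.99 in the low arrays and 7.01 to 7.85 in the others, and that of the muscle list 9.26, 9.56 and 9.05 against 8.27 to 8.98. The part of these tissues in the differences of the follicle genes was not tested.

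Of 18 epidermal genes, 5 were higher without overlap and none was lower (median 0.07), beside 5.25% of all genes higher and 4.61% lower. Krt1, the keratin of suprabasal epidermis, was at 11.10, 11.11 and 10.52 in the low arrays and between 8.98 and 10.39, with a median of 9.76, in the others (1.16, 2.24-fold). Lor, which encodes the cornified envelope protein loricrin, had 10.03, 10.81 and 9.55 against 8.94 to 9.44. Ivl, which encodes the cornified envelope protein involucrin, was among the lowest of the list, with overlap, at 8.01, 9.14 and 7.19 against 7.77 to 9.31. Outside the list, Il1f9, the gene of the epidermal cytokine IL-36 gamma, had 8.13, 8.05 and 7.71 against 5.75 to 7.34 (1.21). With provisional symbols left out, the largest difference upward without overlap was in Slc26a7, an anion transporter, at 7.66, 7.20 and 6.86 against 5.22 to 6.83 (1.37).

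Zfp36 itself differed among the mock knockouts along with the hair keratins. In the 5 mock controls it lay between 7.22 and 7.74, with control 5, the low-hair control, at 7.61. Among the arrays labelled knockout, the low-hair knockouts 3 and 2 had 7.12 and 6.84, close to the controls, and knockouts 1, 4 and 5 had 5.12, 4.61 and 3.47. The difference within the knockouts was 2.58 on the log2 scale (2 arrays against 3), and within the controls it was 0.19 (1 array against 4). Every mock knockout array was below every mock control, but the low-hair set held the 2 mock knockouts nearest to the controls, so hair gene level and the loss of Zfp36 cannot be told apart among the knockouts. The position of the probe set relative to the deleted part of the gene was not given in the sources used here. In imiquimod skin Zfp36 was at 5.47, 7.41, 6.12, 7.18 and 5.82 in knockouts 1 to 5 and between 7.68 and 8.40 in controls, and its slope on the hair keratin mean there was -0.18 (limma adjusted p = 0.561). Knockout 1, which had the highest hair keratin mean of these 5, had the lowest Zfp36. In the mock control 5 alone, Krt71 was lower than the mean of the other controls by a difference of -4.91, against -3.32 for knockouts 3 and 2 within their genotype.

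The hair keratin mean was also compared across the study's conditions with exact two-sided permutation tests, 4 in all. The groups come from the labels, although the mock values are those that ordered the mock arrays for the split. In controls it was 9.23 ± 1.82 (SD, n = 5) in mock skin and 6.45 ± 1.58 (SD, n = 5) after imiquimod, a difference of -2.78 (exact permutation p = 0.0317, 0.127 after Benjamini-Hochberg adjustment over the 4 tests). In knockouts it was 8.68 ± 1.86 and 6.82 ± 1.33 (both SD, n = 5), a difference of -1.86 (exact permutation p = 0.0952, adjusted 0.191). None of the 4 passed after adjustment, and ranges overlapped in both genotypes: control mock 6.10 to 10.34, control imiquimod 5.47 to 9.25, knockout mock 5.95 to 10.27 and knockout imiquimod 5.80 to 8.99. Knockout and control differed by -0.55 in mock skin (exact permutation p = 0.683) and by 0.37 after imiquimod (exact permutation p = 0.587). Of the 10 imiquimod arrays, control 5 (9.25) and knockout 1 (8.99) lay to either side of mock control 3 (9.14), knockout 4 was intermediate at 7.17, and the other 7 lay at or below 6.11.

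The 10 imiquimod arrays took no part in the split, and the same genes could be tested there. For each gene a slope was fitted with limma, as the log2 change per log2 unit of the hair keratin mean with genotype as a covariate, and p-values were adjusted over the 22114 genes. Of all genes, 373 rose with the hair keratin mean (1.69%) and 217 fell (0.981%). Of the 210 genes lower in the low-hair mock arrays, 157 rose with the hair keratins in imiquimod skin, which is 74.8% of the 210 and 42.1% of the 373, and none fell. Of the 32 higher genes, 9 fell with the hair keratins (28.1% of the 32 and 4.15% of the 217) and none rose. The slope was positive, whether or not it passed, in 194 of the 210 lower genes and negative in 29 of the 32 higher genes. The test rests much on control 5 and knockout 1: without control 5 the 373 rising genes became 116, the 217 falling genes 33, the 157 shared genes 89 and the 9 shared genes 2, and without knockout 1 the first 2 counts became 212 and 40 and the last 2. With the rank of the hair keratin mean in place of its value limma called none in either direction, at a lowest adjusted p of 0.0834, although 2490 genes had an unadjusted p under 0.05. With the rank, 192 of the 210 lower genes still had a positive slope.

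**Figure D3:**
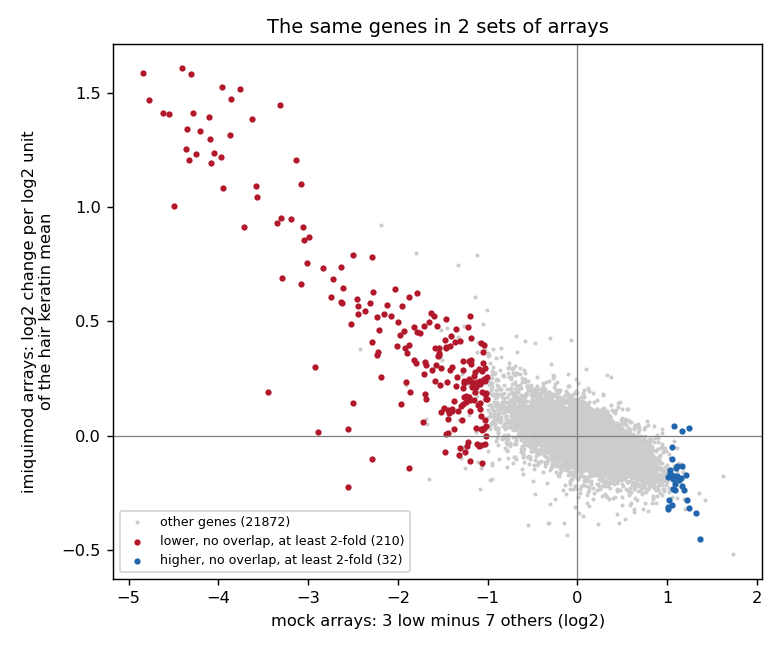
Each point is 1 of 22114 genes outside the hair keratins and Krtap genes: the genotype-adjusted log2 difference of 3 low-hair minus 7 other mock arrays (horizontal axis) against the slope on the hair keratin mean in the 10 imiquimod arrays (vertical axis). Of the 210 lower genes (red), 194 lie above a slope of 0, and of the 32 higher genes (blue), 29 lie below it; no array enters both axes.

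All 10 inner root sheath genes, 12 of 17 shaft genes and 10 of 17 matrix transcription factors rose with the hair keratins in imiquimod skin, and none of these fell. Over all genes 1.69% rose and 0.981% fell. Krt71 was at 11.21 in control 5 and 10.80 in knockout 1, 9.26 in knockout 4 and between 5.41 and 6.62 in the other 7 imiquimod arrays (slope 1.52 ± 0.12 SE, limma adjusted p = 7.08e-06). S100a3 had the smallest adjusted p among named genes, with 9.96, 9.21 and 7.55 in those 3 arrays and 5.92 to 6.37 in the rest (slope 1.04 ± 0.04 SE, limma adjusted p = 1.92e-08). Both followed the hair keratins in their order, with knockout 4 between the other arrays. Hoxc13 had a slope of 0.57 ± 0.07 SE (limma adjusted p = 0.000434), Lef1 0.62, Dlx3 0.39, Bambi 0.50 and Fgf5 0.36, each past the threshold. Of the signal lists, 4 of 27 ligands, 2 of 16 receptors and 3 of 14 inhibitors rose, and 1 inhibitor, Igfbp3, fell. Of 21 outer root sheath and bulge genes 4 rose, among them Lgr5 (slope 0.27, limma adjusted p = 0.0488), and of 12 dermal papilla genes 1 rose, Corin. A count of 1 says little about a list of this size. Ovol1 and Prdm1, transcription factors that also act in interfollicular epidermis, were lower in the low-hair mock arrays by -1.08 and -0.79 but had slopes of -0.04 and -0.01 (limma adjusted p = 0.822 and 0.957).

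Pigment genes rose with the hair keratins in imiquimod skin in 8 of 17, and 1, Rab38, fell, beside 1.69% of all genes rising and 0.981% falling. Tyrp1 was at 8.35 in control 5, 7.55 in knockout 1, 6.39 in knockout 4 and 5.04 to 5.57 in the other 7 (slope 0.80 ± 0.05 SE, limma adjusted p = 4.79e-07). Unlike in mock skin, no imiquimod array had high hair keratins with low Tyrp1. Of the 38 replication and mitosis genes 1 rose, which is near the share of all genes. It was Mki67, with a slope of 0.21 ± 0.05 SE (limma adjusted p = 0.0487). Its values were 9.32 in control 5 and 9.22 in knockout 1, but also 9.22 in knockout 4 and 9.08 in knockout 2, so high and low hair arrays lay close together.

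Lists of the other tissues differed in their counts in imiquimod skin, where 0.981% of all genes fell and 1.69% rose with the hair keratins. None of 19 fibroblast, 18 adipocyte, 14 macrophage or 8 mast cell genes passed in either direction. Median slopes were -0.0051 for fibroblasts, -0.13 for adipocytes, -0.16 for macrophages and -0.10 for mast cells, beside -0.0049 over all genes. Except in fibroblasts, these were of similar size to the medians for muscle (-0.17), sebaceous gland (-0.15), endothelium (-0.11) and dendritic cells (-0.12). Skeletal muscle genes fell with the hair keratins in 3 of 21, namely Pvalb (slope -0.32 ± 0.07 SE, limma adjusted p = 0.0376), Casq1 and Mylpf. Sebaceous gland genes fell in 4 of 15 and rose in 1, Fads2, a fatty acid desaturase (slope 0.49). Endothelial genes fell in 4 of 13 and dendritic cell and MHC class II genes in 3 of 9, with H2-Ab1 at a slope of -0.25 (limma adjusted p = 0.00916). In the epidermal list 1 of 18 fell, Lor (slope -0.32, limma adjusted p = 0.0295), while Krt1 had a slope of -0.13 (limma adjusted p = 0.214). Il1f9 fell with a slope of -0.17 (limma adjusted p = 0.0142), and its relative Il1f6, which encodes IL-36 alpha, with -0.23 (limma adjusted p = 0.00192). In mock skin Il1f6 had overlapped, at 7.13, 7.07 and 6.4 in the low arrays and 5.39 to 7.04 in the others. The telogen signal Fgf18 fell as well (slope -0.14, limma adjusted p = 0.0262).

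**Figure D4:**
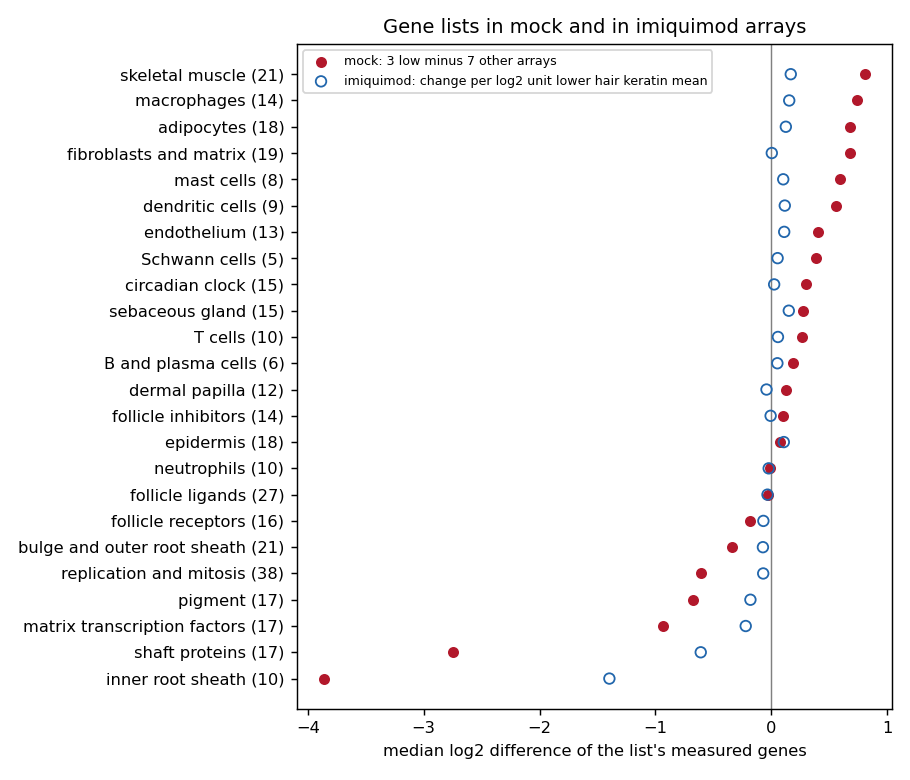
Median log2 difference of each gene list (number of measured genes in brackets): filled points give 3 low-hair minus 7 other mock arrays, and open points the change per log2 unit of lower hair keratin mean in imiquimod arrays, so both scales run toward lower hair keratins. Inner root sheath, shaft and matrix lists lie to the left in both (mock medians -3.86, -2.74 and -0.94), and the muscle and macrophage lists to the right (mock medians 0.81 and 0.74).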

How the data were processed

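A single table held the authors' deposited values of 20 Affymetrix arrays. The deposited values were taken as log2, because they run from 1.41 to 13.33; for the log base, summarisation, normalization and software, none was given in the sources used here. Per the labels' protocols, 200 ng of total RNA were labelled with the WT PLUS kit. Array medians were 4.94 to 5.04. The number of arrays limits the precision, and detection calls were not used. Of 41345 probe sets, 23521 had 1 gene symbol, 1814 several and 16010 no entry in the platform table; the brightest single-symbol probe set stood for a gene (22180 genes). Folds are antilogs of log2 differences.

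The mock difference is limma's coefficient (R 4.3.3, limma 3.58.1) with genotype as covariate and no test. Slopes in imiquimod arrays used lmFit and eBayes, two-sided, Benjamini-Hochberg threshold 0.05 (7 residual degrees of freedom). Tested on simulated data with 22114 genes, that fit recovered 37 of 50 genes at a slope of 0.25 and 50 of 50 at 0.5. The simulated noise was normal and independent between genes, so it checked the fit only and not the dependence on single arrays. The limma p-values set each slope against the residual variation between these animals, moderated over genes. The permutation p-values compare a difference with those under relabelling of the arrays. Named genes were the 20 largest falls and 15 largest rises in the mock split without overlap, the 3 lowest and highest of each list, all members of the matrix, inner root sheath, signal, bulge, papilla and pigment lists, the 10 smallest adjusted p of each slope direction, and Zfp36. Provisional symbols were left out. The members and the 24 gene lists (370 measured memberships) were chosen with earlier results of these data known. Alternatives are given in the closing section.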

Additional observations from a re-analysis of the deposited data

Results flagged for a closer look

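In each group of 5 arrays, the hair keratin mean and the list means were searched for an array far from the other 4. Of 104 group and measure combinations 16 held one. For independent measures chance gives about 1 in 20. The measures share the same arrays, and the lists were chosen with earlier results known, so the 16 cannot be set against that rate. The mock hair keratin mean is also the value that ordered the mock arrays for the split. Among mock controls, control 5 stood apart in the hair keratin mean (6.10, others 9.14 to 10.34), in the inner root sheath list (6.29, others 10.09 to 10.92) and in the follicle receptor list (6.63, others 6.92 to 6.93).

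Among imiquimod controls, control 5 stood apart in the other direction, with a hair keratin mean of 9.25 (others 5.47 to 6.04), an inner root sheath mean of 9.89 (others 5.17 to 6.27), a shaft mean of 8.51 (others 6.08 to 6.29) and a matrix transcription factor mean of 7.24 (others 6.32 to 6.46). It was also highest in the pigment (6.50), ligand (5.94) and dermal papilla (5.39) lists. It was lowest in the epidermal (9.77, others 10.07 to 10.19), endothelial (6.01) and dendritic cell (6.03) lists.

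The pigment list stood apart in mock knockout 1 (6.71, others 5.54 to 5.84) and in imiquimod knockout 1 (6.10, others 5.37 to 5.54). The neutrophil list stood apart in mock knockout 5 (4.71, others 4.26 to 4.32).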

How the results depend on the processing

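The 210 lower genes became 473 at a log2 minimum of 0.58 and 190 to 295 with 1 array left out. The 32 higher genes became 359 at that minimum, 76 with the 2 lowest arrays against 8, 52 after quantile normalization, and 26 to 105 with 1 array left out. They were 88 without control 3 and 105 without knockout 2, which sets the 2 lowest against 7. The rule of no overlap is easier to meet with fewer arrays. In imiquimod skin the 373 rising genes became 171 with the replicate number as a block, 0 with ranks and 116 to 436 with 1 array left out (116 without control 5, 212 without knockout 1). The 217 falling genes became 25 with the replicate block, 125 without the genotype covariate, 353 with a variance trend, 0 with ranks and 33 to 350 with 1 array left out (lowest without control 5). The 157 shared lower genes became 115 with the block, 0 with ranks and 89 to 164 with 1 array left out. The 9 shared higher genes became 1 with the block or without genotype, 5 with all hair genes averaged or after quantile normalization, 0 with ranks and 2 to 13 with 1 array left out. Same-numbered animals did not deviate together in all pairs (correlations -0.628 to 0.426), so the numbers were not taken as pairs. The cause of these changes was not tested.

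With same-numbered animals paired, the difference of -2.78 between imiquimod and mock controls had p = 0.125 in an exact sign-flip test. With 5 pairs this test cannot give a p under 0.05, so it decides nothing here. The unadjusted exact permutation p was up to 0.0635 with 1 array left out (differences -3.56 to -2.50). In knockouts the difference of -1.86 became -2.54 without mock knockout 3 (exact permutation p = 0.0317; differences -2.54 to -1.46 with 1 array left out). Knockout against control changed sign in mock skin without knockout 3, to 0.14 (range -1.33 to 0.14), and in imiquimod skin without knockout 1, to -0.17 (range -0.17 to 1.07). The 24 list medians of the mock split were each recomputed under several alternatives. Of the recomputed medians, 10 moved by more than the spread between arrays and 182 did not. Those that moved were in the inner root sheath, matrix, outer root sheath and bulge, ligand and receptor lists. The inner root sheath median of -3.86 became -4.75 without mock knockout 2, -3.20 without control 5 and -3.29 without knockout 3. Of the recomputed values of named genes, 53 moved and 192 did not. Leaving out knockout 2 and setting the 2 lowest arrays against 7 are the same fit, and each was counted. Detection above background is unknown, so differences of dim genes are uncertain.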
